A study of Mus musculus with 9 samples.

Results

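The genes described here encode the cell surface proteins that organise synapses by adhesion. They were taken by symbol from the protein-coding genes of the GENCODE vM21 annotation of the mouse build mm10, and comprised the neurexins (Nrxn), neuroligins (Nlgn), Lrrtm, Slitrk, Lrfn, contactin (Cntn), contactin-associated protein (Cntnap), teneurin (Tenm) and latrophilin or related (Adgrl) genes with the phosphatase genes Ptprd, Ptprs and Ptprf, 45 genes in all out of 21938. Of the 12949 differentially methylated regions (DMRs) in the deposited table, 59 overlapped the body of one of these genes or the 1000 bp upstream of it. These 59 DMRs lay in 20 of the 45 genes.

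DNA methylation had been profiled in the hypothalamus of male C57/Bl6 mouse pups at P6, either after modified maternal separation (MMS) or in control males of the same litters. In MMS the pups were taken away from the dam for part of each day from P4 to P6 and laid on their backs. Methylated DNA immunoprecipitation (meDIP), which pulls down fragments with an antibody against methylcytosine, was sequenced from 3 control and 3 MMS libraries, each a pool of animals drawn at random from the 10 of its group, beside a control input, an MMS input and an IgG library. Each DMR carries the log2 mean of normalised reads in the control pools and in the MMS pools, with no value for a single pool. The methods give the total reads of the libraries only as a range over samples, so the spread between pools and the reads of each pool behind a mean could not be computed, no test between groups could be made here, and the small number of pools limits the precision of every mean. Every row of the table had already passed the authors' false discovery rate limit, so a gene without a DMR is a gene with no region past that limit, which does not show equal methylation. The sources leave unsettled whether the DESeq2 or the edgeR setting of the authors' comparison made this list, and a gene without a DMR here may hold one in the other list. Reads at a region rise both with methylation and with the number of CpG sites, and the means are not scaled by length. In this bulk tissue, fewer cells of a type and less methylation per cell cannot be told apart.

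Synaptic organisers span the synaptic cleft. Presynaptic neurexins and LAR-type receptor phosphatases bind postsynaptic partners such as the neuroligins, LRRTM, SLITRK and LRFN (SALM) proteins, while teneurins and latrophilins bind each other across the cleft, and contactins act with their contactin-associated proteins on axons and at synapses. Many of these proteins are needed for the assembly or the properties of excitatory and inhibitory synapses. Several of their genes are among the longest in the genome and consist mostly of intron. Vertebrate gene bodies are methylated at most of their CpG sites, and a CpG site is the usual place of methylcytosine in mammalian DNA.

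Windows of 150 bases from 6 of the DMRs show part of their sequence. Sequence beside the DMRs, which the fragments bound by the antibody may also hold, was not examined. The reference is the plus strand of GRCm38 (mm10) from RefSeq, and CpG sites are in capitals. The first pair are the DMRs with the largest difference in each direction, in an intron of Tenm3 (chr8:48450751-48450900, higher in MMS) and in an intron of Tenm2 (chr11:37051423-37051572, higher in control). They hold 3 and 2 CpG sites in these windows.
Tenm3 intron: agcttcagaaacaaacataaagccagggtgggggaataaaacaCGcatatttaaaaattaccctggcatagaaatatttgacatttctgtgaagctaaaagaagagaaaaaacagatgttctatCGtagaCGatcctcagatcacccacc
Tenm2 intron: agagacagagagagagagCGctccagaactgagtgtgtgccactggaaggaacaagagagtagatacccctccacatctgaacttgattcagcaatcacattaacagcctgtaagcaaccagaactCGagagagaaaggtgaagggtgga
The next 3 are from the DMRs with over 100 coding bp, in Nrxn2 (chr19:6473323-6473472), Tenm3 (chr8:48228663-48228812) and Tenm4 (chr7:96874018-96874167). They hold 4, 17 and 7 CpG sites. The 17 sites in the last exon of Tenm3 stand far closer together than those of the introns.
Nrxn2 exon: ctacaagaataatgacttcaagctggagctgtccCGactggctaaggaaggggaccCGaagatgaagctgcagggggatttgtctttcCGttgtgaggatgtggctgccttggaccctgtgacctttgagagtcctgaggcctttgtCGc
Tenm3 exon: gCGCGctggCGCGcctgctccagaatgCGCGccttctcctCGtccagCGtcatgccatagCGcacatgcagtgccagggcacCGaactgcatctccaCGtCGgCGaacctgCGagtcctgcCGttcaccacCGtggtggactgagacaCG
Tenm4 exon: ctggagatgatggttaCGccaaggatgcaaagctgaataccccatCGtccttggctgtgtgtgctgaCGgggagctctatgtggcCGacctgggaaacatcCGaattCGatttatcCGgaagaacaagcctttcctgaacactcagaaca
The last window, from an intron of Ptprs (chr17:56438081-56438230), was added after its values had been seen, since that DMR holds 0 CpG sites although its difference was the second of those higher in MMS by size.
Ptprs intron: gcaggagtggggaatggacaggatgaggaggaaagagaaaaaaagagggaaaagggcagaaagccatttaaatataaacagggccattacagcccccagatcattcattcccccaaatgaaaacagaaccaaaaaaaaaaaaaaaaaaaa

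Of the 45 genes, 20 (44.4%) held a DMR, against 19.3% of all protein-coding genes. The organiser genes were long, with a median of 167.8 kb against 17.43 kb for all protein-coding genes, and gene length went with the share of genes that held a DMR. Of genes over 300 kb, 79.9% held a DMR (453 of 567), and of the organiser genes of that length 14 of 20 did. From 100 to 300 kb the share was 57.4% of all genes and 4 of 7 organiser genes. From 10 to 100 kb it was 20.5% of all genes and 2 of 12 organiser genes, and up to 10 kb it was 3.58% and 0 of 6. In none of the 4 classes of length was the share of organiser genes with a DMR above that of all genes. Per Mb of gene, the organiser genes held 2.849 DMRs and all protein-coding genes 6.248, and over 300 kb the values were 2.666 and 4.376.

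**Figure D1:**
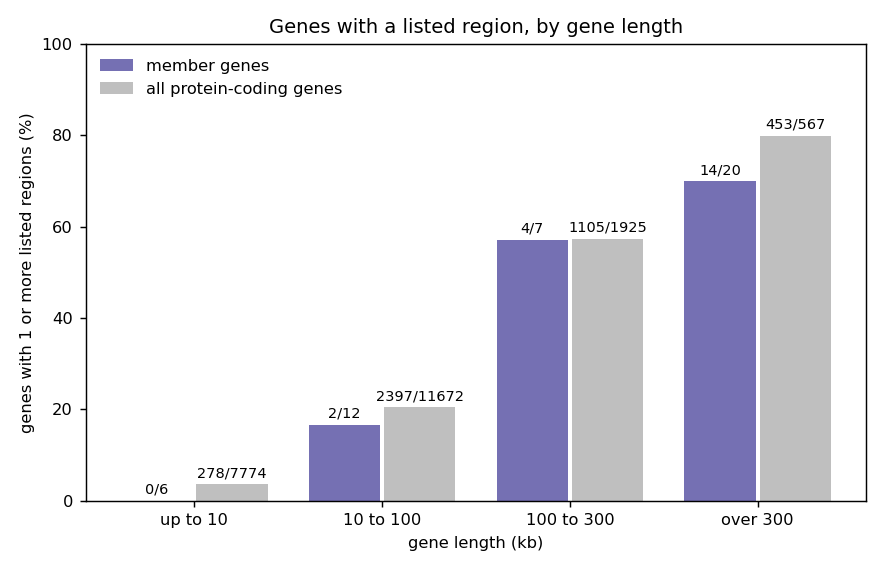
Percent of genes with 1 or more DMRs in 4 classes of gene length, for the 45 organiser (member) genes and for all protein-coding genes, with genes with a DMR over all genes of the class above each bar. Both rise with length, and in genes over 300 kb the organiser genes stand at 14 of 20 against 79.9% of all genes.

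The families differed widely in their number of DMRs. The neurexins are left out of this tally by family and described by gene. The 4 teneurin genes held 25 of the 59, the 6 contactins 12, the 7 contactin-associated protein genes 4, the 3 neuroligins and the 4 LRRTM genes 3 each, the 3 phosphatases 2, and the 5 LRFN genes and the 4 Adgrl genes 1 each. The 6 SLITRK genes, which code for neurite outgrowth regulators with leucine-rich repeats and are only 5.359 to 12.11 kb long, held 0. The teneurins thus held 42.4% of the DMRs on 16.8% of the summed length of the 45 genes. On a per Mb scale the teneurins had 7.17 DMRs, the contactins 3.56, the neuroligins 3.166, the LRRTM genes 3.079, the LRFN genes 1.895, the Adgrl genes 0.8857, the phosphatases 0.8271 and the contactin-associated protein genes 0.7997.

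**Figure D2:**
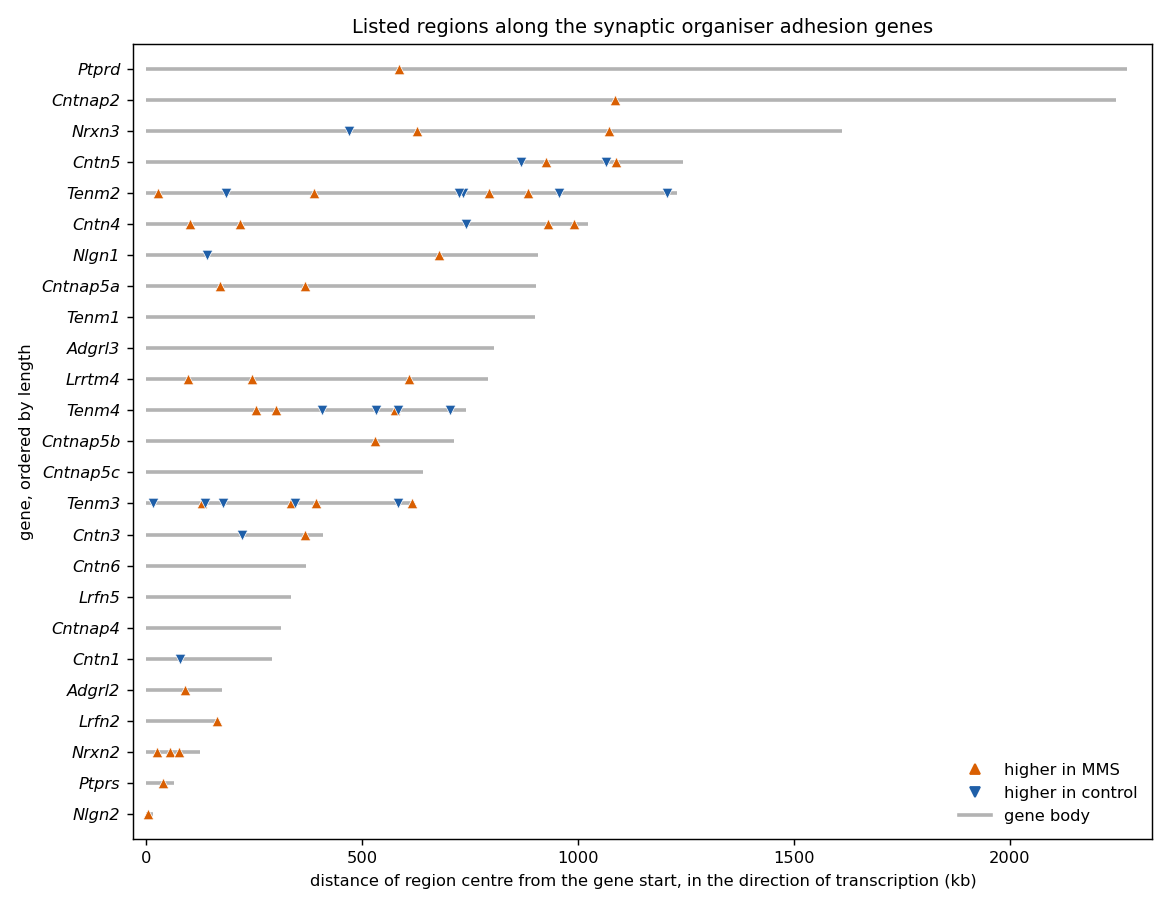
Distance of each DMR centre from the start of its gene in kb (x axis), for organiser genes that hold a DMR or are over 300 kb, except those not reported by name, in order of length (y axis). Grey lines are gene bodies, upward triangles DMRs higher in MMS and downward triangles DMRs higher in control. Tenm2 and Tenm3 carry 9 DMRs each and Tenm4 carries 7, in both directions, and the other genes carry 5 or fewer.

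Of the 59 DMRs, 38 (64.4%) had a higher mean in MMS and 21 in control, close to the 62.6% of all listed DMRs that were higher in MMS. Their size was also near that of all DMRs. The median difference, MMS minus control on the log2 scale, was 3.31 in the 38 (range 1.04 to 4.84, all DMRs of that direction 3.43) and -1.61 in the 21 (range -3.36 to -0.85, all DMRs of that direction -1.73). The median log2 level of the 38 was 0.50 in control and 4.05 in MMS, and that of the 21 was 5.23 in control and 3.55 in MMS. Levels in control thus differed more between the DMRs of the opposite directions than levels in MMS did.

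The table has a lowest control mean of -0.17, or 0.8888 normalised reads, and a difference measured from that floor would be another size had the floor been set elsewhere. Control was within 0.5 of this lowest value in 18 of the 38 organiser DMRs higher in MMS (47.4%, against 52.7% of all DMRs higher in MMS). The MMS mean was near its own lowest value, -0.24, in 0 of the 21 higher in control, against 4.6% of all such DMRs. The 2 directions therefore differed among the organiser genes as in the whole table. In those higher in MMS the control mean was often at the floor. In those higher in control both means mostly lay above their lowest values. The paper describes normalisation to an input and subtraction of an IgG control. A mean at the floor therefore need not mean that a pool had no reads there.

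**Figure D3:**
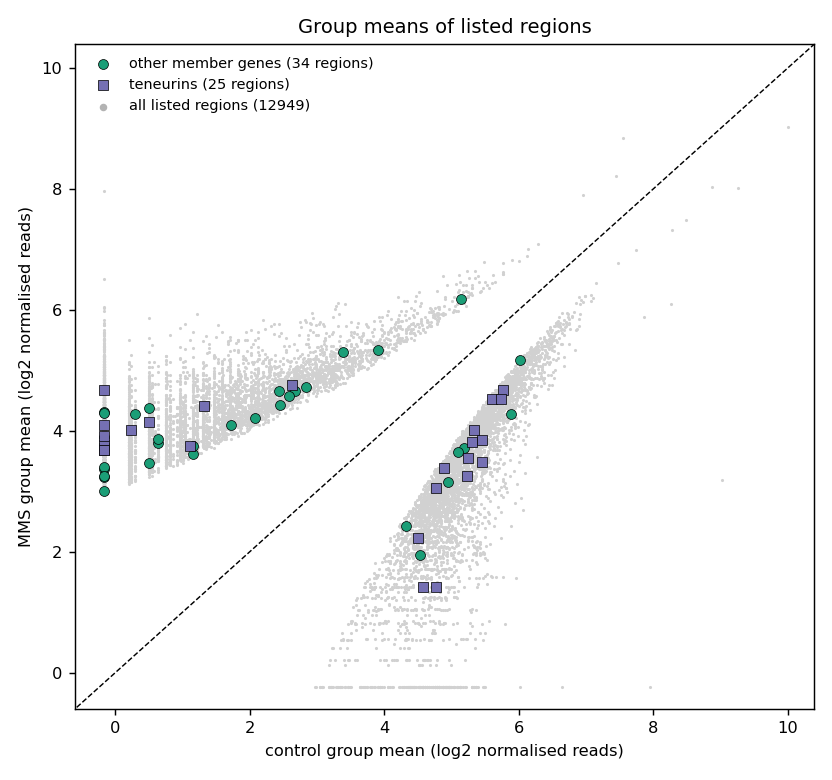
Mean log2 normalised reads in the control pools (x axis) and the MMS pools (y axis) for the 59 organiser DMRs, over all 12949 listed DMRs in grey, with a dashed line of equal means. Squares are teneurin DMRs and circles those of the other families. Organiser DMRs in the column at the lowest control mean of -0.17 could hardly lie lower in MMS, whose lowest mean is -0.24.

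Tenm3 had the highest number of DMRs per Mb of the organiser genes over 300 kb. Teneurins are large transmembrane proteins that bind latrophilins and one another and guide the matching of axons with their targets. In Tenm3, which spans 616.3 kb of chromosome 8, the 9 DMRs came to 14.6 per Mb and ranked it at place 23 of the 567 genes over 300 kb. Of the 9, 4 were higher in MMS and 5 in control. The largest difference of all 59 DMRs lay in intron 2, at chr8:48450415-48451235, where the log2 mean was -0.17 in control and 4.67 in MMS, a difference of 4.84. That DMR holds 23 CpG sites. At chr8:48715306-48715790 the control mean was again at the lowest value, -0.17, with 3.68 in MMS. The means at chr8:48507256-48507968 were 2.62 and 4.75, so that control was above its lowest value there.

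The fourth Tenm3 DMR higher in MMS, at chr8:48228213-48229026, touches the last exon, exon 29 of 29. Its means were 1.32 in control and 4.41 in MMS. Of its 814 bp, 578 bp are coding and 236 bp are 3′ UTR, and it holds 63 CpG sites, or 7.74 per 100 bp, of which the coding window printed above shows 17. The 5 Tenm3 DMRs higher in control all had control means of 4.50 to 5.46 and MMS means of 2.22 to 3.82. Both means were thus above their lowest values at each of the 5. The widest drop among them was at chr8:48707091-48707696, from 4.50 to 2.22. The others fell from 5.25 to 3.55 at chr8:48259872-48261076, from 4.77 to 3.06 at chr8:48499611-48500621, from 5.46 to 3.48 at chr8:48664964-48665766 and from 5.30 to 3.82 at chr8:48827347-48828525. None of the 5 touched an exon of a coding transcript.

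Tenm2, on chromosome 11, is the longest of the teneurin genes at 1229 kb, and its 9 DMRs came to 7.321 per Mb. The 9 split almost evenly by direction, 4 higher in MMS and 5 in control. They included the largest difference in the direction of control, at chr11:37051395-37051600, where the mean was 4.77 in control and 1.41 in MMS, a difference of -3.36. The other 4 DMRs higher in control went from 5.60 to 4.53 at chr11:36279604-36280448, from 5.45 to 3.84 at chr11:36501422-36501637, from 5.23 to 3.26 at chr11:36511260-36512026 and from 4.89 to 3.38 at chr11:36028701-36028962. The first of these lies also in Gm12127, an antisense gene, and meDIP does not assign reads to a strand of transcription. Of the 4 higher in MMS, control was at -0.17 at chr11:36352509-36352727 (MMS 3.77) and at chr11:36441029-36441234 (MMS 4.09). It was 0.23 at chr11:36846292-36846751 (MMS 4.01) and 1.11 at chr11:37207841-37208532 (MMS 3.74). Control was thus low in each of the 4.

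Tenm4, a regulator of myelination on chromosome 7, held 7 DMRs in 739.8 kb, or 9.461 per Mb. Its largest difference toward control was at chr7:96578814-96579429, from 4.57 in control to 1.41 in MMS (-3.16), the second largest toward control of all 59. A pair of its DMRs touch coding exons, and both were higher in control. At chr7:96873608-96874695, which takes in 878 coding bp of exon 27 of 33 and 33 CpG sites, the mean fell from 5.33 to 4.01, and at chr7:96703748-96703946, with 21 bp of exon 8, from 5.77 to 4.68. The intronic DMR at chr7:96755079-96755279 fell from 5.73 to 4.52. The 3 DMRs higher in MMS had control means of 0.50, -0.17 and -0.17 and MMS means of 4.15, 3.68 and 3.92. The coding DMRs of Tenm4 and Tenm3 therefore differed in opposite directions. The last teneurin, Tenm1, held 0 DMRs in 901.3 kb of the X chromosome. Of all X-linked protein-coding genes 4.75% held a DMR, and of the 26 over 300 kb 8 did (30.8%). The other 3 X-linked organiser genes, Nlgn3, Slitrk2 and Slitrk4, also held 0.

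DMRs of opposite direction could lie close together in a teneurin gene. In Tenm3, a DMR higher in control (chr8:48499611-48500621) and one higher in MMS (chr8:48507256-48507968) were 6.634 kb apart, and a second such pair (chr8:48707091-48707696 and chr8:48715306-48715790) was 7.609 kb apart. In Tenm4, chr7:96747558-96747876 (-0.17 to 3.92) and the DMR at chr7:96755079-96755279 were 7.202 kb apart. These 3 were the pairs of opposite direction among the 5 neighbouring pairs under 15 kb in all organiser genes. Of the 39 pairs of neighbours at any distance, 23 (59.0%) were of opposite direction, beside 45.6% of the 2478 such pairs in all protein-coding genes and 47.4% of the 982 in genes over 300 kb. Under 15 kb, the share in all protein-coding genes was 46.2% of 693 pairs.

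Tenm2, Tenm3 and Tenm4 together held 25 DMRs in 2585 kb (9.67 per Mb), of which 11 (44.0%) were higher in MMS. The other 17 organiser genes over 300 kb held 26 (1.572 per Mb), of which 20 were higher in MMS and 6 in control. Over all 41 organiser genes that are not teneurins, 27 of 34 DMRs (79.4%) were higher in MMS. With the means at least 2 apart on the log2 scale, 11 of 14 (78.6%) in the 3 teneurins and 21 of 22 (95.5%) in the other organiser genes were higher in MMS, beside 80.6% of all listed DMRs. With an overall log2 mean of at least 3, the counts were 7 of 21 (33.3%) and 15 of 22 (68.2%), beside 51.8% of all listed DMRs. The share was lower in the teneurins at both limits, while its own size moved with the limit. CpG content moved with the contrast over all DMRs. Tenm3 has 1.348 CpG sites per 100 bp of gene, Tenm4 0.9667 and Tenm2 0.848, against a median of 0.5024 for the 20 organiser genes over 300 kb and 0.7326 for the 567 genes of that length. Its part in the difference was not tested.

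Classes of CpG content over the 567 genes give values to read these against. Genes over 300 kb with up to 0.5 CpG sites per 100 bp held 1.36 DMRs per Mb, of which 83.8% were higher in MMS. From 0.5 to 0.75 they held 2.46 per Mb (69.0% higher in MMS), from 0.75 to 1 they held 5.579 (64.5%), and above 1 they held 9.854 (57.5%). DMRs were thus denser, and less often higher in MMS, in classes of more CpG sites. The 10 organiser genes of the lowest class held 1.746 per Mb and the 6 of the next 1.416. In the third class, the DMR density of Tenm2 (7.321 per Mb) lay within the middle range of its class, with quartiles of 2.845 and 7.731, Tenm4 (9.461) lay above it, and Cntnap4 held 0. Tenm3, the single organiser gene in the highest class, lay above the upper quartile of 13.07.

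Across the 20 organiser genes over 300 kb, Spearman's rho between CpG content and DMRs per Mb was 0.380 and Pearson's r was 0.805. Without the 3 teneurins the values were -0.0188 and -0.137 over 17 genes. The 3 had been set apart after the data were seen and hold the highest values of both measures. Their removal narrows both ranges, so the 17 cannot show that the relation is absent among them. Across the 567 genes they were 0.658 and 0.669. These are descriptions across genes, which share the same libraries and a sequence composition that meDIP itself reads, and genes are not independent replicates.

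**Figure D4:**
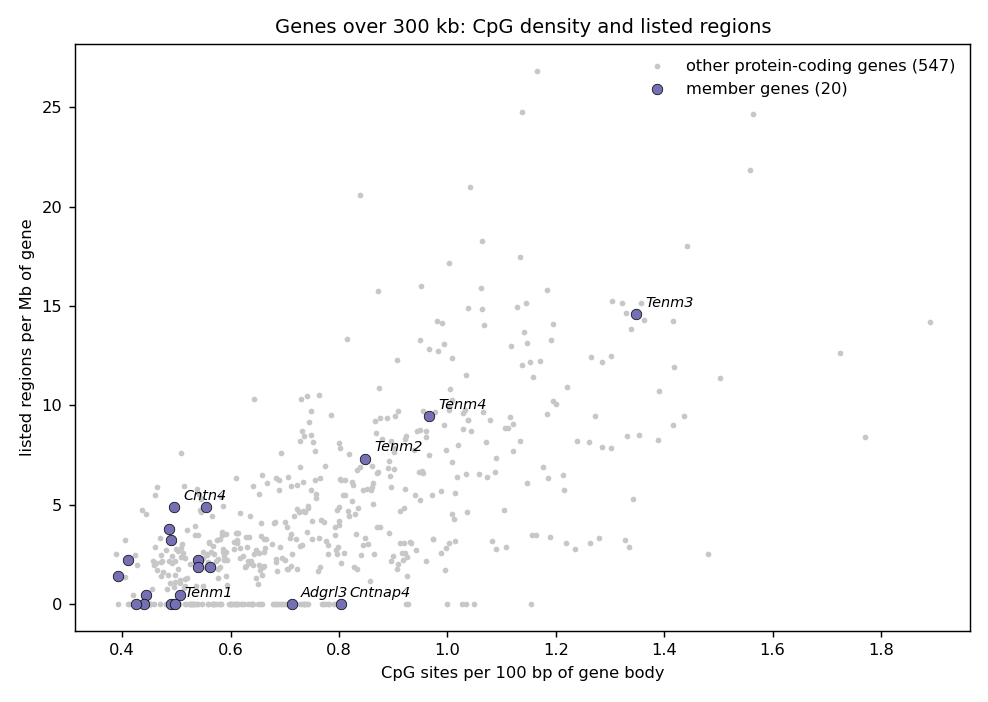
DMRs per Mb of gene (y axis) against CpG sites per 100 bp of gene (x axis) for the 20 organiser genes over 300 kb in colour and the other protein-coding genes of that length in grey, of 567 in all. Tenm3, Tenm4 and Tenm2 stand at 14.6, 9.461 and 7.321 per Mb to the right of most other organiser genes, which lie below 5 per Mb.

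Neurexins are the presynaptic hubs to which most of the postsynaptic organisers bind, and each gene makes long (alpha) and short (beta) forms from separate promoters. Nrxn2 and Nrxn3 held 3 DMRs each. In Nrxn2, of 125.4 kb on chromosome 19 and CpG-rich at 1.846 sites per 100 bp, all 3 DMRs were higher in MMS. The DMR at chr19:6473127-6473476, with 159 coding bp of exon 8 of 22, rose from 2.84 to 4.72 on the log2 scale, or from 7.16 to 26.35 normalised reads. In intron 2, at chr19:6443973-6444193, the means were -0.17 and 3.78. At chr19:6494939-6496319 in intron 16 they were 0.50 and 4.37. The centre of that DMR, which holds 23 CpG sites, lay 2.199 kb upstream of the start of a shorter coding transcript, of 660 codons against 1710 in the longest.

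Nrxn3, 1612 kb of chromosome 12, held 3 DMRs in both directions. At chr12:89190850-89191796 in intron 4 the mean was 5.88 in control and 4.27 in MMS, and the centre lay 1.783 kb upstream of the start of a coding transcript. Further along the gene the direction was the opposite: 3.90 to 5.34 at chr12:89349797-89349994 and 2.58 to 4.58 at chr12:89794600-89795012, the latter in an intron of 443.3 kb, 17.68 kb upstream of the start of a short transcript.

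Among the postsynaptic partners of neurexins, the neuroligins Nlgn1 and Nlgn2 held DMRs and Nlgn3 did not. Nlgn1, which acts mainly at excitatory synapses, spans 906.2 kb and held 1 DMR in each direction, from 1.16 to 3.75 at chr3:25654461-25654700 and from 5.10 to 3.65 at chr3:26191321-26191915. Nlgn2, which acts mainly at inhibitory synapses, is only 14.66 kb long, and its intron 2 held a DMR of 1486 bp with 26 CpG sites at chr11:69832113-69833598. With means of 5.14 and 6.18, or 35.26 and 72.5 normalised reads, this DMR had the smallest difference of those higher in MMS, 1.04, and the highest MMS mean of the 59. Lrrtm4, an excitatory organiser of 791.3 kb, held 3 DMRs, all higher in MMS and all in the same intron of 785.8 kb. Their means were 0.50 and 3.46 at chr6:80115480-80115782, -0.17 and 3.89 at chr6:80262477-80262975, and 2.07 and 4.21 at chr6:80626286-80626441. Lrrtm1, Lrrtm2 and Lrrtm3 held 0.

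In the LRFN family, the DMR of Lrfn2 at chr17:49095650-49096276 reached 26 bp into the last exon and rose from 1.72 to 4.10. Lrfn1, Lrfn3, Lrfn4 and Lrfn5 held 0, and of these Lrfn5 is the only one over 300 kb, at 335.2 kb. Among the LAR-type phosphatases, presynaptic receptors for the SLITRK and LRFN proteins, Ptprd and Ptprs held 1 DMR each and Ptprf held 0. Both had control at -0.17. In Ptprs the MMS mean was 4.31, a difference of 4.48, at chr17:56438077-56438233, whose 157 bp hold 0 CpG sites. In Ptprd, the longest of the 45 genes at 2271 kb, it was 3.70 at chr4:77626413-77626587. That DMR is 89.14% repeat sequence and lies outside the span of the coding transcripts, 1032 kb upstream of the nearest coding start.

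Contactins are membrane-anchored adhesion molecules of the immunoglobulin superfamily. Cntn4, which takes part in the wiring of sensory pathways, held 5 DMRs in 1022 kb of chromosome 6, and 4 of them were higher in MMS. Control was at -0.17 in 3 of these 4, with MMS means of 3.36 at chr6:105779655-105780012, 3.23 at chr6:105895133-105895309 and 3.40 at chr6:106668904-106669444, and the fourth rose from 0.64 to 3.86 at chr6:106607472-106607816. The DMR higher in control fell from 4.95 to 3.15 at chr6:106417438-106417605. Repeat sequence filled 93.79% of the DMR at 3.23 and 95.93% of that at 3.40, and these had 128 and 9 further alignments in the genome of at least 100 bp at 95% identity or more.

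Cntn5, of 1244 kb, held 4 DMRs, 2 in each direction. The means were 2.45 and 4.42 at chr9:9816533-9817229, -0.17 and 3.00 at chr9:9978832-9979092, 6.02 and 5.17 at chr9:9839722-9841716, and 5.18 and 3.72 at chr9:10036936-10037924. Both DMRs higher in control had MMS means above the lowest value. The control mean of 6.02 was the highest of the 59, and the DMR, at 1995 bp, the widest. Cntn3, of 410.4 kb, held 1 in each direction, from 3.39 to 5.31 at chr6:102205163-102206296 and from 4.53 to 1.95 at chr6:102351387-102351538, the third largest difference toward control (-2.58) in a DMR of 0 CpG sites that is 75.66% repeat. Cntn1, a contactin of nodes of Ranvier and their flanks, held 1 DMR of 13 CpG sites at chr15:92128384-92129012, which fell from 4.32 to 2.43 and had its centre 0.51 kb downstream of a coding transcript start. Cntn2 and Cntn6 (370.6 kb) held 0.

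The contactin-associated protein genes held few DMRs for their length, and all 4 were higher in MMS. Cntnap2, which helps to cluster potassium channels beside the nodes, held 1 in 2245 kb, from 1.15 to 3.61 at chr6:46144497-46145302. That DMR has a single CpG site, 50.12% repeat sequence and 17 further alignments. At 0.4455 DMRs per Mb Cntnap2 ranked at place 451 of the 567 genes, and Ptprd at 0.4404 ranked at place 453, which is the last place held by a gene with a DMR. Cntnap5a, of 902.6 kb, held 2, from 2.43 to 4.65 at chr1:115856077-115856490 and from 0.64 to 3.80 at chr1:116051460-116052101, the latter 100% repeat with 53 further alignments. Cntnap5b held 1, from 0.29 to 4.27 at chr1:100302450-100303208. Cntnap1, Cntnap3, Cntnap4 (312.7 kb) and Cntnap5c (640.8 kb) held 0.

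The Adgrl genes code for adhesion G protein-coupled receptors. Adgrl1, Adgrl2 and Adgrl3 are the latrophilins, the partners of the teneurins, and Adgrl4, taken in by its symbol, is a related receptor of the endothelium. Adgrl2 held 1 DMR in its intron 1, from 2.67 to 4.66 at chr3:148901057-148902462, with 13 CpG sites. Adgrl1, Adgrl4 and the long Adgrl3 (805 kb, 0.7135 CpG sites per 100 bp) held 0. The 4 genes thus held 0.8857 DMRs per Mb, against 7.17 for the teneurins.

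Taken over families, 8 of the 12 organiser genes with 2 or more DMRs had them in both directions (Cntn3, Cntn4, Cntn5, Nlgn1, Nrxn3, Tenm2, Tenm3 and Tenm4), and 4 had them all higher in MMS, among them Nrxn2, Lrrtm4 and Cntnap5a. Both directions occurred in 66.7% of the 12, beside 57.3% of the 1330 protein-coding genes with 2 or more DMRs and 70.3% of the 313 such genes over 300 kb.

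By position, 54 of the 59 DMRs touched no exon of a coding transcript, and 48 of these lay in an intron of the longest one. Exons of noncoding transcripts were not checked. Coding exons were touched by 5 DMRs (in Lrfn2, Nrxn2, Tenm3 and, with 2, Tenm4). At a promoter, taken as the 1000 bp before a coding transcript start and the 100 bp after it, lay 0. The centres of 5 lay within 5 kb of such a start, in Cntn1, Nlgn2, Nrxn2, Nrxn3 and Ptprs. Introns of over 50 kb held 31 of the DMRs. In the organiser genes over 300 kb, the 51 DMRs had their median position at 59.74% of the gene from its start, against 49.42% for all genes of that length. The first 20% of the gene held 13.7% of the 51, against 21.7% for all genes of that length. The last 20% held 17.6%, against 22%. All genes of that length hold 1420 DMRs and 1435 pairs of a DMR and a gene, since a DMR was counted for each gene it overlapped. Just beyond the limit of 1000 bp upstream, Cntnap4, Lrrtm3 and Cntnap1 had a DMR at 4.885, 4.738 and 3.139 kb. Each was higher in control, with differences of -1.43, -1.76 and -1.66.

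By the median, the width, GC content and repeat share of the 59 DMRs were near those of all DMRs. Their median width was 541 bp (152 to 1995 bp, all DMRs 544 bp), the median GC content 45.98% (all 47.44%) and the median share of repeat sequence 18.02% (all 20.65%). DMRs made mostly of repeat sequence were 13 of the 59 (22%), against 17.4% of all DMRs and 13.5% of those in genes over 300 kb. The median was 1.543 CpG sites per 100 bp, against 1.323 in all DMRs and 1.277 in the DMRs of genes over 300 kb. The DMR had more CpG sites per 100 bp than its own gene in 45 of 59 (76.3%), as it did in 71.7% of the 1435 pairs of a DMR and a gene over 300 kb. Teneurin DMRs had a median of 1.856 sites per 100 bp and 10.55% repeat, and those of the other organiser genes 1.036 and 25.65%. Of the 59, 51 had no second alignment of at least 100 bp at 95% identity in the genome and 8 did, among them Tenm3 at chr8:48499611-48500621 and at chr8:48507256-48507968 with 1 each. Whether reads at these 8 came from a copy elsewhere was not tested.

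Partners outside the families were counted in the same way. Of 31 such genes, 11 (35.5%) held a DMR, against 19.3% of all protein-coding genes. Of the 11 over 300 kb 8 did, against 79.9% of all genes of that length, and of the 20 shorter ones 3 did. Among all shorter protein-coding genes the share was 3.58% up to 10 kb, 20.5% from 10 to 100 kb and 57.4% from 100 to 300 kb. They held 29 DMRs in all, 21 higher in MMS and 8 in control, beside the 62.6% of all listed DMRs that were higher in MMS. Among those with 2 or more, Grid1, a glutamate receptor delta gene whose product is linked to presynaptic neurexins through cerebellins, held 8 (6 higher in MMS). The calsyntenin gene Clstn2 held 5 (3 higher in MMS), Igsf21, whose product binds neurexin 2, held 3 (all higher in MMS), and the synaptic adhesion gene Cadm2 held 1 in each direction. As among the organiser genes, the long ones held most of the DMRs.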

How the data were processed

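Male hypothalamic meDIP libraries (3 control and 3 MMS pools) were compared by the authors, who aligned Ion Proton reads to mm10, used MACS2 2.1 for broad peaks against the inputs (with the human genome size setting, -g hs), subtracted IgG and compared groups with DiffBind, by DESeq2 and by edgeR. The authors' deposited table is named for DESeq2, but its 12949 rows equal the number that a supplementary legend of the authors gives for edgeR, and the legend has more for DESeq2. Which of them made the table was not settled. HOMER 4.8 is also named in the submitters' notes. The deposited log2 values are the authors' means of normalised reads over all libraries and over each group, for regions past their limit alone. The columns headed untreated and treated were read as control and MMS. The authors' own columns of fold, p-value and FDR were not used here. Columns of values left without a sample or group numbered 0.

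Direction was taken from the 2 group means. DMRs were joined to GENCODE vM21 protein-coding genes with 1000 bp upstream. CpG, GC and soft-masked repeat content came from GRCm38, and alignments from BLAST 2.17.0 (at least 100 bp, 95% identity). A group within 0.5 (log2) of its lowest value was counted as at that value. Python 3.11.15, numpy 2.4.6, pandas 2.3.3, scipy 1.17.1 and matplotlib 3.10.9 were used, and the joins were checked on simulated regions. The genes, partner list and alternatives (other gene bounds, widths, differences and levels) were chosen with earlier results of these data known. Values were given by rule for the gene with most DMRs in each family, the 3 largest differences each way, DMRs touching coding exons or promoters, and genes with both directions. Some items are counted in the totals and not reported by name here. Values of other DMRs and of Cntnap4, Lrrtm3 and Cntnap1 upstream were added after being seen.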

Additional observations from a re-analysis of the deposited data

How the results depend on the processing

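No paired analysis was possible because the deposited values are group means, and for the same reason no library could be left out. Of 98 values recomputed under 14 settings, 90 stayed near the reported ones and 8 moved. A share or median counted as near if it lay inside the 95% interval of the reported one. Counts were judged by a wide fold limit, so that 40 organiser DMRs counted as near 59. Settings for the gene body alone, overlap by centre or by larger part, any symbol ending and no chromosome X returned the same 59 DMRs. These settings changed no DMR and so no value. With the means at least 2 apart, 36 organiser DMRs remained, 88.9% higher in MMS (80.6% of all listed DMRs), the median of the 4 higher in control was -2.87, and Tenm2, Tenm3 and Tenm4 held 14, of which 78.6% were higher in MMS, so that the more common direction in these genes turned from control to MMS. With DMRs of at least 300 bp these genes held 16. With an overall log2 mean of at least 3, 51.2% of the organiser DMRs were higher in MMS (51.8% of all), and control was at its lowest value in 31.8% of those (33.4% of all). The organiser genes with a DMR numbered 17 to 23. The teneurin directions were set apart after the data had been seen. The table holds no value per pool at any DMR, so differences between DMRs in size have no error.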
